A study of Saccharomyces cerevisiae with 6 samples.

Results

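The ergosterol pathway of *Saccharomyces cerevisiae* was examined through 31 genes of 5925 in the count tables, chosen by name: 9 mevalonate step genes, 3 squalene step genes, 12 late step genes, 2 electron donors, 2 regulators and 3 genes of sterol esterification and uptake. All 31 were found, and all 31 passed the filter on low counts that left 5774 genes for testing. Messenger RNA of 2 strains was sequenced in 6 poly(A) libraries, 3 of BSGX001 and 3 of BSGX001 (thi2Δ). Both strains descend from CEN.PK 113-5D, and both carry Ru-XI, XK, gre3::PPP and cox4delta and a history of adaptive evolution on xylose, so that the controls share every one of these changes. The thi2delta allele is the only difference the labels give. All libraries were taken at 20 h, in the GX stage, when xylose was being consumed after the glucose had run out; the medium had held both sugars at 20 g/L each. Nothing states that the 3 libraries of a strain came from separate cultures, so p-values measure the spread between these libraries, which may be technical.

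Ergosterol is the main sterol of fungal membranes. Its synthesis starts with the mevalonate steps, which build farnesyl diphosphate from acetyl-CoA, passes through squalene to lanosterol, and ends with a series of demethylations, isomerizations and desaturations in the endoplasmic reticulum, several of which use molecular oxygen, and some of which depend on heme. The zinc cluster factors Upc2p and Ecm22p read sterol supply and activate many *ERG* genes through a sterol regulatory element in their promoters, while surplus sterol is esterified and stored in lipid droplets.

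The core of the sterol regulatory element, TCGTATA, was searched on both strands in the 500 bases before each start codon of the R64 reference. It was present in 9 of the 31 members and in 402 of the windows of 5766 tested genes (6.97%). It was present in 4 of the 12 members that were higher in BSGX001 (thi2Δ), in 0 of the 4 that were lower, and in 5 of the 15 that did not pass the test (*ERG8*, *ERG1*, *ERG25*, *ERG3* and *CYB5*). The share was the same, 33.3%, in the members that rose and in those that did not pass. The windows of *UPC2* and *ECM22* themselves held no match. The sites of the 4 members that rose are shown because they are the places where these letters and a measured rise fall in the same gene. Each stretch of 57 bases follows the strand of its gene from 5′ to 3′, with the 7 motif bases in capitals; TATACGA is the reverse complement of the motif.
*ERG13*, chrXIII:20718-20774, minus strand, 214 bases before the start codon: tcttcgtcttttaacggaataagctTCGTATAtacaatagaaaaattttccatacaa
*ERG13*, chrXIII:20605-20661, minus strand, 101 bases before the start codon: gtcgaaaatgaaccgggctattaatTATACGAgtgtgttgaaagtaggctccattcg
*ERG2*, chrXIII:667327-667383, plus strand, 185 bases before the start codon: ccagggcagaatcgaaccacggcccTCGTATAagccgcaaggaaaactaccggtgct
*ERG6*, chrXIII:253391-253447, minus strand, 432 bases before the start codon: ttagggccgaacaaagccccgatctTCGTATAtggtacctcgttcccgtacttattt
*ERG28*, chrV:238263-238319, minus strand, 278 bases before the start codon: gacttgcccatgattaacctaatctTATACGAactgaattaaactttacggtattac
A match is a run of letters only, and binding was not measured. *ERG13* carried the motif once in each orientation, and the other 3 genes carried it once. Repeated sites were not limited to members that rose. Among those that did not pass, *ERG3* also carried the motif in each orientation, and *ERG25* carried it more than once.

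The libraries held 7584920 to 12255688 counts, and levels are given as CPM, counts scaled to a common library size with TMM, the edgeR method that sets the typical gene to no change. *THI2*, the gene named as deleted, had 22.7, 24.5 and 27.0 CPM in BSGX001 and 9.81, 10.9 and 13.9 CPM in BSGX001 (thi2Δ), which was 46.6% of the BSGX001 level (log2 fold change -1.10, SE 0.14, adjusted p = 6.32e-08, edgeR), where SE is the standard error of the log2 fold change. It was lower but not at 0 in the libraries labelled BSGX001 (thi2Δ). Counts were summed over the gene and do not show which part of it the reads came from, so the strain is called by its label throughout. Of all 5774 genes tested, 1507 (26.1%) rose and 1457 (25.2%) fell in BSGX001 (thi2Δ) at an adjusted p under 0.05, and 138 had changed at least 2-fold (2.39%). The median log2 fold change of all tested genes was 0.0093. The TMM factors of the strains did not overlap, at 0.912 to 0.942 in BSGX001 and 1.06 to 1.09 in BSGX001 (thi2Δ). Scaling by library totals moved the median of all genes to 0.22 and the calls to 2999 higher and 595 lower, so changes are reported relative to the typical gene.

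Among the 31 members, 12 rose in BSGX001 (thi2Δ) (38.7%, against 26.1% of all genes), 4 fell (12.9%, against 25.2%) and 15 did not pass the test. The median log2 fold change of the members was 0.06, and only *ECM22* changed at least 2-fold. With library totals the members split into 20 higher and 2 lower, with a median of 0.28, where 51.9% of all genes were higher and 10.3% lower. The changes were therefore modest and uneven along the pathway, as the plot of fold changes by pathway step shows. The libraries of the strains did not overlap for 18 of the 31 members, against 57.8% of all genes, a share near the background. These 18 were 11 of the 12 members that rose, all 4 that fell, and *ERG11*, *ERG25* and *ARE1*, which did not pass the test. The coefficient of variation between libraries ran from 0.925% (*ERG3*) to 13.6% (*ERG26*) in BSGX001, with a median of 5.87%, and from 2.21% (*ERG12*) to 30.9% (*CYB5*) in BSGX001 (thi2Δ), with a median of 6.25%.

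**Figure D1:**
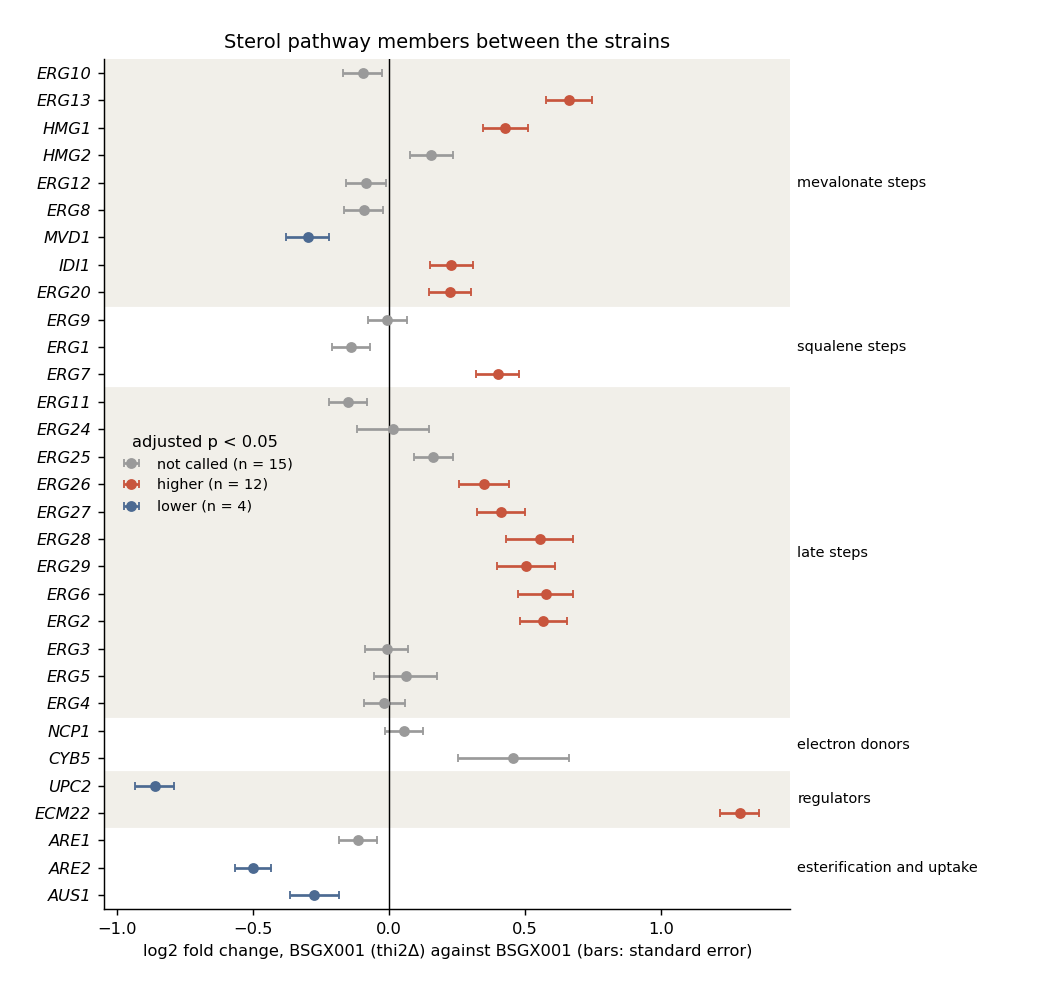
Log2 fold change of BSGX001 (thi2Δ) against BSGX001 for the 31 members, in pathway order; points are edgeR estimates, bars are standard errors, and colours mark the 12 higher, 4 lower and 15 uncalled members. The rises gather in *ERG13* to *HMG1* and in *ERG26* to *ERG2*, *ECM22* lies farthest right at 1.29 and *UPC2* farthest left at -0.86.

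The summed level of the 31 members was 3516, 3552 and 3631 CPM in BSGX001 and 3328, 3374 and 3459 CPM in BSGX001 (thi2Δ). The lower sum lay in a few abundant genes. Without *UPC2* and *ECM22* the other 29 members summed to 2712, 2826 and 2848 CPM in BSGX001 and to 2706, 2814 and 2893 CPM in BSGX001 (thi2Δ), which overlap. A share of all counts is a scaling by library totals, under which the typical gene also read higher in BSGX001 (thi2Δ). By that share the 31 members took 0.331%, 0.330% and 0.331% in BSGX001. In BSGX001 (thi2Δ) they took 0.354%, 0.366% and 0.375%. The direction of the sum for all 31 members thus depends on whether it is read after TMM scaling or as a share of counts.

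The mevalonate steps were led by *ERG13*, which encodes the synthase of HMG-CoA. It had 41.2, 48.8 and 47.4 CPM in BSGX001 and 70.0, 73.2 and 73.8 CPM in BSGX001 (thi2Δ), a log2 fold change of 0.66 (SE 0.083, adjusted p = 8.81e-08). Every BSGX001 (thi2Δ) library lay above every BSGX001 library, and the fold of 1.58 was the second largest rise among the members. Of the 9 genes of these steps, 4 rose (44.4%, against 26.1% of all genes), 1 fell (11.1%, against 25.2%) and 4 did not pass. Their median log2 fold change was 0.16. With library totals 5 were higher and 0 lower, with a median of 0.37, where 51.9% of all genes were higher and 10.3% lower. The median was 0.099 without BSGX001 replicate 1 and 0.075 without BSGX001 (thi2Δ) replicate 1, and 2 of the 9 were higher without BSGX001 (thi2Δ) replicate 3.

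*HMG1* and *HMG2* encode the paralogous HMG-CoA reductases, which make mevalonate in the step that limits flux into the pathway. *HMG1* had 52.2, 52.7 and 51.2 CPM in BSGX001 and 74.3, 62.7 and 72.2 CPM in BSGX001 (thi2Δ), a log2 fold change of 0.43 (SE 0.083, adjusted p = 7.41e-05). The BSGX001 libraries lay close together for *HMG1* and the strains did not overlap. *HMG2* had 103.2, 114.9 and 118.3 CPM in BSGX001 and 137.6, 113.3 and 122.3 CPM in BSGX001 (thi2Δ), a log2 fold change of 0.16 that did not pass (SE 0.079, adjusted p = 0.0976). The strains overlapped for *HMG2*.

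Further down, *IDI1*, the isopentenyl diphosphate isomerase, and *ERG20*, the farnesyl diphosphate synthase, rose slightly. *IDI1* had 95.2, 87.2 and 90.9 CPM in BSGX001 and 94.7, 114.2 and 112.2 CPM in BSGX001 (thi2Δ) (log2 fold change 0.23, SE 0.079, adjusted p = 0.0165). Replicate 1 of BSGX001 (thi2Δ) lay inside the BSGX001 range, which made *IDI1* the only member that rose with overlapping strains. *ERG20* had 83.9, 91.4 and 78.2 CPM in BSGX001 and 98.0, 95.4 and 103.0 CPM in BSGX001 (thi2Δ) (log2 fold change 0.22, SE 0.076, adjusted p = 0.015). The call of *IDI1* was lost without BSGX001 replicate 2 (adjusted p = 0.0891) and without BSGX001 (thi2Δ) replicate 2 (0.0776) or 3 (0.0856), and that of *ERG20* without BSGX001 replicate 3 (0.0895) or BSGX001 (thi2Δ) replicate 3 (0.076).

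*MVD1*, the mevalonate diphosphate decarboxylase, was the mevalonate step gene that fell. It had 99.2, 111.6 and 106.3 CPM in BSGX001 and 76.7, 89.3 and 92.1 CPM in BSGX001 (thi2Δ), a log2 fold change of -0.30 (SE 0.079, adjusted p = 0.00225). The strains did not overlap, but with library totals the value was -0.08 and did not pass (adjusted p = 0.376). The thiolase gene *ERG10*, the mevalonate kinase gene *ERG12* and the phosphomevalonate kinase gene *ERG8* had log2 fold changes of -0.10, -0.09 and -0.09 and did not pass (adjusted p = 0.262, 0.344 and 0.275).

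In the squalene steps, *ERG7*, which encodes the lanosterol synthase, rose and the other two did not pass. *ERG7* had 54.8, 56.0 and 52.2 CPM in BSGX001 and 67.8, 74.3 and 73.5 CPM in BSGX001 (thi2Δ), a log2 fold change of 0.40 (SE 0.079, adjusted p = 0.000104). No library of one strain entered the range of the other. The squalene synthase gene *ERG9* was at 162.2 to 190.6 CPM in BSGX001 and 171.8 to 187.2 CPM in BSGX001 (thi2Δ), a log2 fold change of -0.01 (adjusted p = 0.948). The squalene epoxidase gene *ERG1* was at 159.0 to 175.6 CPM and 146.3 to 162.8 CPM, a log2 fold change of -0.14 (adjusted p = 0.0968), and both genes overlapped between the strains.

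Of the 12 genes of the late steps, 6 rose, against 26.1% of all genes, and 6 did not pass, with a median log2 fold change of 0.26. None fell by the edgeR test (1 did at an unadjusted p under 0.05, and DESeq2 called 0). With library totals 10 of the 12 were higher, against 51.9% of all genes. The 6 that rose stand side by side in the order used here, as the plot of single libraries shows. They begin with *ERG26* and *ERG27*, which act in the removal of the methyl groups at the fourth sterol carbon. The order places *ERG28* and *ERG29* next, before the side chain methylation (*ERG6*) and the isomerization that follows it (*ERG2*). The methyl oxidase gene *ERG25*, listed just before them, did not pass.

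**Figure D2:**
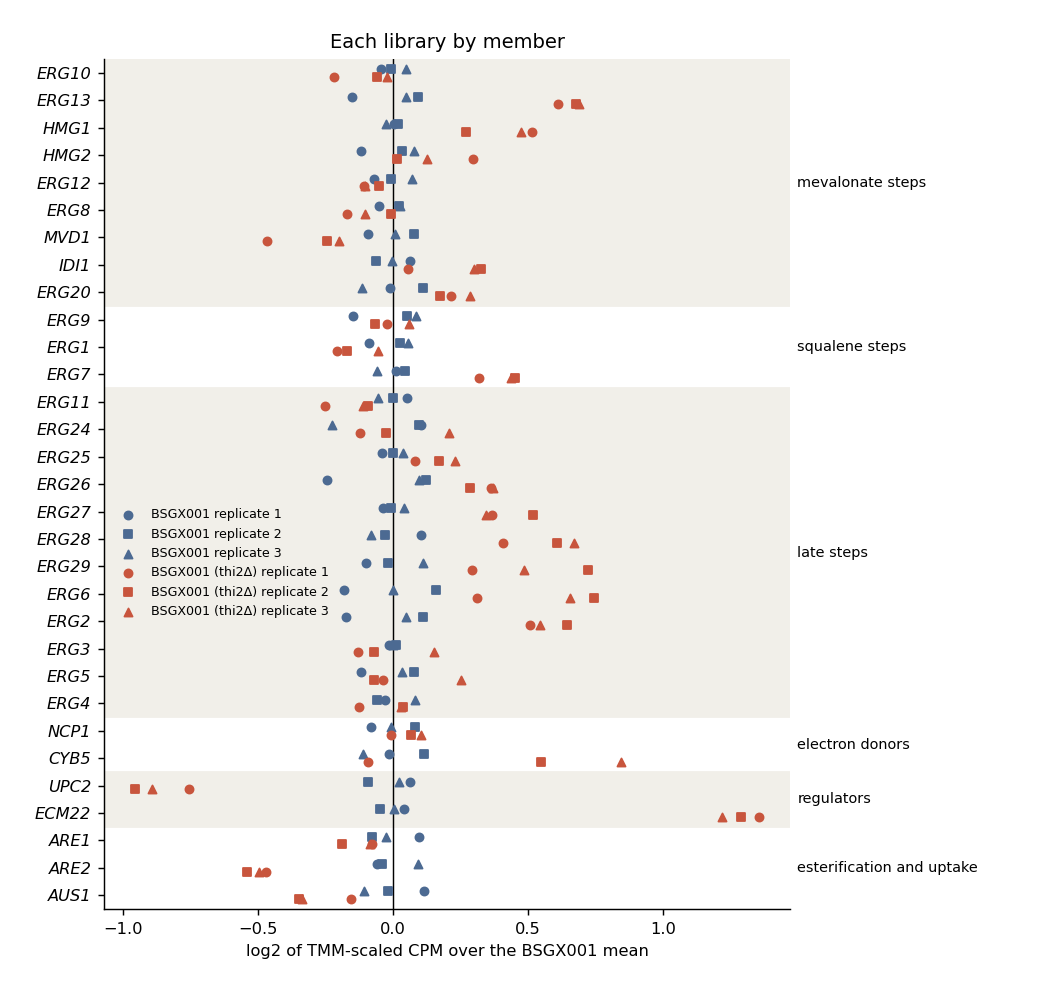
Level of each member in each library, as log2 of its TMM-scaled CPM over the mean of the BSGX001 libraries; blue marks BSGX001, red marks BSGX001 (thi2Δ), and the marker shape gives the replicate number. The red markers lie right of all blue markers from *ERG25* to *ERG2* and for *ERG13*, *HMG1*, *ERG20*, *ERG7* and *ECM22*. They lie left of all blue markers for *MVD1*, *ERG11*, *UPC2*, *ARE1*, *ARE2* and *AUS1*.

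*ERG26* and *ERG27* encode the decarboxylase and the keto reductase of the demethylation complex, *ERG28* encodes the scaffold that holds the complex together, and *ERG29* encodes a membrane protein implicated in the oxidation of methyl sterols. *ERG28* had 16.6, 15.1 and 14.6 CPM in BSGX001 and 20.5, 23.5 and 24.6 CPM in BSGX001 (thi2Δ), a log2 fold change of 0.55 (SE 0.124, adjusted p = 0.000413). *ERG29* had 25.6, 27.1 and 29.6 CPM against 33.7, 45.3 and 38.4 CPM, a log2 fold change of 0.50 (SE 0.107, adjusted p = 0.00024). Both had low counts for this pathway and wider errors than most members, and neither overlapped between the strains. *ERG27* had 35.5, 36.3 and 37.4 CPM against 47.0, 52.2 and 46.3 CPM, a log2 fold change of 0.41 (SE 0.088, adjusted p = 0.000277). *ERG26* had 37.4, 48.2 and 47.4 CPM against 57.0, 54.1 and 57.4 CPM, a log2 fold change of 0.35 (SE 0.092, adjusted p = 0.00208). BSGX001 replicate 1 was the low library of *ERG26*, and all BSGX001 (thi2Δ) libraries were above the highest BSGX001 library.

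*ERG25*, the methyl oxidase that works with these proteins, had 111.9, 115.0 and 117.9 CPM in BSGX001 and 121.6, 129.5 and 134.9 CPM in BSGX001 (thi2Δ). The strains did not overlap, yet the log2 fold change of 0.16 missed the threshold (SE 0.072, adjusted p = 0.0567). *ERG25* was thus the member of the complex with the most counts and the smallest estimate, and no test of its difference from *ERG26*, *ERG27* or *ERG28* was made.

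*ERG6*, the methyltransferase that adds a methyl group to the sterol side chain, had 42.9, 54.3 and 48.7 CPM in BSGX001 and 60.3, 81.6 and 76.5 CPM in BSGX001 (thi2Δ). Its log2 fold change was 0.58 (SE 0.101, adjusted p = 3.08e-05), with replicate 1 the lowest library of both strains. *ERG2*, the sterol isomerase of the next step, had 43.7, 53.2 and 51.0 CPM against 70.1, 77.0 and 71.8 CPM, a log2 fold change of 0.57 (SE 0.085, adjusted p = 1.68e-06). Both genes rose by about the same amount and neither overlapped between the strains. Together with *ERG13* and *ERG28* these are the members whose upstream windows are printed above.

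The last steps did not pass the test. *ERG3* and *ERG5*, the desaturases, and *ERG4*, the final reductase, had log2 fold changes of -0.01, 0.06 and -0.02 (adjusted p = 0.93, 0.689 and 0.86). *ERG24*, the reductase that acts after the lanosterol demethylase, was at 15.2 to 19.1 CPM in BSGX001 and 16.3 to 20.5 CPM in BSGX001 (thi2Δ), a log2 fold change of 0.01 (SE 0.131, adjusted p = 0.936). All 4 overlapped between the strains. *ERG11*, the lanosterol demethylase and the target of azole antifungals, had 222.2, 214.0 and 206.2 CPM in BSGX001 and 179.8, 200.9 and 198.6 CPM in BSGX001 (thi2Δ). Its libraries did not overlap, and its log2 fold change of -0.15 missed the threshold (SE 0.069, adjusted p = 0.0663).

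The members that consume molecular oxygen were *ERG1*, *ERG11*, *ERG25*, *ERG3* and *ERG5*. Of these 5, 0 were called in either direction by edgeR (1 was higher and 1 lower at an unadjusted p under 0.05) and 0 by DESeq2, where 26.1% of all genes were higher and 25.2% lower, and their median log2 fold change was -0.0098. That count changed with single libraries: *ERG1* was lower without BSGX001 replicate 1, and *ERG25* was higher without BSGX001 (thi2Δ) replicate 1. *ERG25* was also higher in a fit without chromosome I and a stretch of chromosome XII described with *ECM22*. With library totals 3 of the 5 were higher, against 51.9% of all genes. The 6 late step genes that rose were not among these 5. *NCP1*, the reductase that passes electrons from NADPH to Erg11p and Erg5p, had 143.2 to 160.1 CPM in BSGX001 and 150.7 to 162.6 CPM in BSGX001 (thi2Δ) (log2 fold change 0.06, adjusted p = 0.53). *CYB5*, the cytochrome that serves the desaturase and oxidase steps, had 6.96, 7.62 and 6.50 CPM against 6.59, 10.3 and 12.6 CPM, a log2 fold change of 0.46 with a wide error (SE 0.204, adjusted p = 0.0607). Replicate 1 of BSGX001 (thi2Δ) stood at the BSGX001 level for *CYB5*, and without that library the value was 0.71 and passed (adjusted p = 0.0033).

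The regulators moved in opposite directions. *UPC2* had 717.9, 645.1 and 698.5 CPM in BSGX001 and 407.3, 354.9 and 371.0 CPM in BSGX001 (thi2Δ), and fell to 55.0% of the BSGX001 level (log2 fold change -0.86, SE 0.072, adjusted p = 1.71e-11). *ECM22* had 86.2, 81.2 and 84.2 CPM in BSGX001 and 214.7, 205.0 and 195.4 CPM in BSGX001 (thi2Δ), and rose 2.44-fold (log2 fold change 1.29, SE 0.072, adjusted p = 4.3e-15). For both genes the gap between the strains was far wider than the range within a strain. *UPC2* had the largest fall and *ECM22* the largest rise of the 31 members. The summed level of both regulators was 804, 726 and 783 CPM in BSGX001 and 622, 560 and 566 CPM in BSGX001 (thi2Δ), without overlap.

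**Figure D3:**
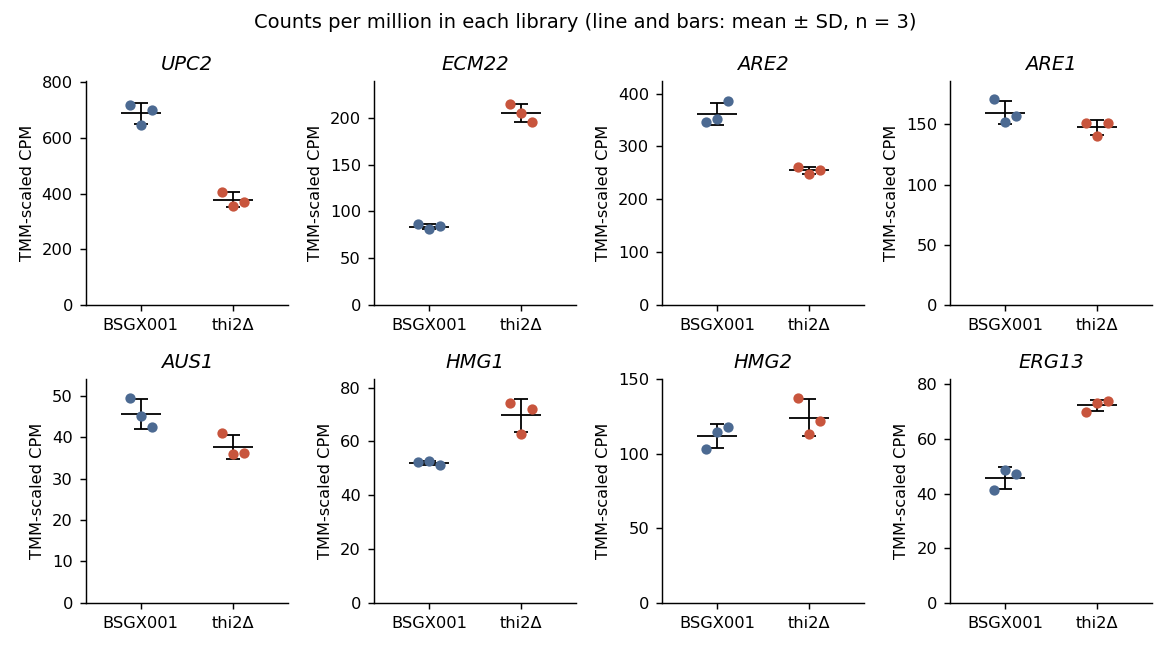
TMM-scaled CPM of 8 members in each library, with the mean and SD of 3 libraries per strain; each vertical axis starts at 0 and has its own range. *UPC2*, *ARE2* and *AUS1* are lower and *ECM22*, *HMG1* and *ERG13* higher in all BSGX001 (thi2Δ) libraries, while *HMG2* overlaps and *ARE1* is lower by a margin that did not pass the test.

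Because Upc2p and Ecm22p are paralogs, their transcripts were also compared within each library, where library scaling cancels. The FPKM of *ECM22*, a level scaled to gene length and library total, was 0.135, 0.141 and 0.135 of that of *UPC2* in BSGX001 and 0.591, 0.648 and 0.591 in BSGX001 (thi2Δ). The mean log2 ratio differed by 2.15 between the strains, and *UPC2* stayed the more abundant transcript in every library. *HMG1* relative to *HMG2* was 0.501, 0.455 and 0.429 in BSGX001 and 0.535, 0.549 and 0.585 in BSGX001 (thi2Δ), a log2 difference of 0.27. *ARE1* relative to *ARE2* was 0.518, 0.454 and 0.429 against 0.611, 0.594 and 0.619, a log2 difference of 0.39. In all 3 pairs the less abundant paralog gained on the other without overlap between the strains. Of all single genes tested 57.8% did not overlap either, and no such share was computed for gene pairs. *ECM22* also lies in a stretch of chromosome XII where nearly every gene was higher, described below. The two-sided exact permutation test gave p = 0.1 for each pair, the smallest value that 20 assignments of 3 against 3 libraries allow. The longest run of identical coding bases within a pair was 29 for *ECM22* and *UPC2*, 23 for *HMG1* and *HMG2* and 17 for *ARE1* and *ARE2*.

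*ECM22* lies at chromosome XII, 600019 to 602463, and is the first gene of a stretch, running to *GAS2*, in which nearly every gene was higher in BSGX001 (thi2Δ). Of its 107 tested genes 103 rose, and the median of the stretch was 1.06. *ECM22* exceeded the median by 0.23, and 23 of the 107 genes (21.5%) were above it. The 25 tested genes before *ECM22* had a median of -0.025 and the 25 after it a median of 1.04. Next to it, *BUR2*, *ADY4* and YLR227W-B stood at -0.09, 0.21 and 0.15 on one side, and *CDC42*, *BNA5* and *EST1* at 1.26, 0.44 and 1.29 on the other. The rise of *ECM22* was thus of the size of the stretch that it opens, and the part of the stretch in that rise was not tested. Chromosome I was the other such region, where the median of 85 tested genes was 0.99, and no other member lay in either region. Without *ECM22* the members were 11 higher (36.7%) and 4 lower (13.3%) of 30, with a median of 0.058. Among all genes outside both regions 23.7% were higher and 26.1% lower, with a median of -0.0046.

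**Figure D4:**
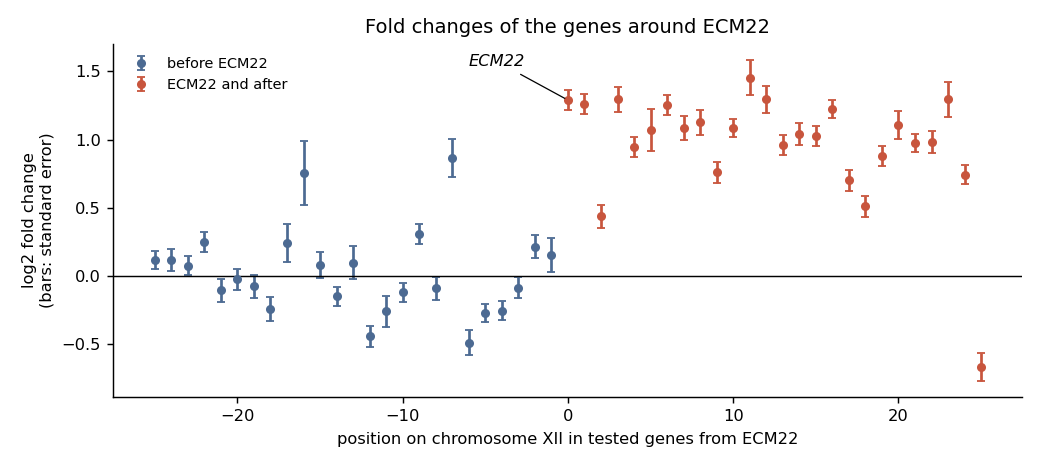
Log2 fold change of BSGX001 (thi2Δ) against BSGX001 for *ECM22* and the 25 tested genes on each side of it, in chromosome order; bars are standard errors. Genes before *ECM22* scatter around a median of -0.025. The genes after it lie around a median of 1.04, with 1 of the 25 below 0, and *ECM22* itself is at 1.29.

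Of the 3 genes of sterol storage and uptake, 2 fell, against 25.2% of all genes, and 1 did not pass. *ARE2*, the main sterol acyltransferase of aerobic cells, had 346.4, 351.5 and 385.4 CPM in BSGX001 and 260.5, 248.3 and 256.1 CPM in BSGX001 (thi2Δ), a fall to 70.7% (log2 fold change -0.50, SE 0.067, adjusted p = 2.67e-07). Every BSGX001 (thi2Δ) library lay below every BSGX001 library. *AUS1*, a transporter that imports sterol when oxygen is lacking, had 49.3, 45.0 and 42.3 CPM against 40.9, 35.8 and 36.1 CPM (log2 fold change -0.27, SE 0.092, adjusted p = 0.0132). That call was lost with library totals (-0.06, adjusted p = 0.583), without BSGX001 replicate 1 (adjusted p = 0.0878) and without BSGX001 (thi2Δ) replicate 3 (0.0604). *ARE1*, the second acyltransferase, had 170.5, 151.5 and 156.9 CPM against 151.2, 140.1 and 150.7 CPM and did not pass (log2 fold change -0.12, SE 0.071, adjusted p = 0.177). The annotated gene YCR050C overlaps *ARE1*, and since it is not given whether counting used strand, reads of the pair may not have been separable. The 3 genes together summed to 566, 548 and 585 CPM in BSGX001 and 453, 424 and 443 CPM in BSGX001 (thi2Δ), without overlap.

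Levels of different genes were compared in FPKM, which is scaled to gene length. *UPC2* was the highest member in BSGX001 at 232.5 ± 13.98 FPKM (SD, n = 3), 23.0-fold above the lowest, *AUS1*, at 10.10 ± 0.94 FPKM. *ARE2* followed at 173.5 ± 7.58 FPKM. Next came *ERG9* at 124.8 ± 9.05 and *ERG11* at 124.7 ± 6.60 FPKM, whose order is not separated by their spread. The lower end held *HMG1* at 15.2 ± 0.44, *ERG5* at 13.2 ± 0.81 and *ERG24* at 12.5 ± 1.74 FPKM, of which the last pair also lay within their spread. In BSGX001 (thi2Δ) the order at the top changed. *ERG25* at 149.2 ± 9.18, *UPC2* at 148.4 ± 8.95, *ERG9* at 144.3 ± 6.75 and *ARE2* at 142.5 ± 2.37 FPKM lay within each other's spread, and *IDI1* at 133.2 ± 14.7 FPKM overlapped them. *ECM22* moved from rank 24 of 31, at 31.8 ± 1.22 FPKM, to rank 12, at 90.4 ± 3.46 FPKM. FPKM is set by library totals, so a level in FPKM reads about 0.22 higher on the log2 scale in BSGX001 (thi2Δ) for the typical gene.

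**Figure D5:**
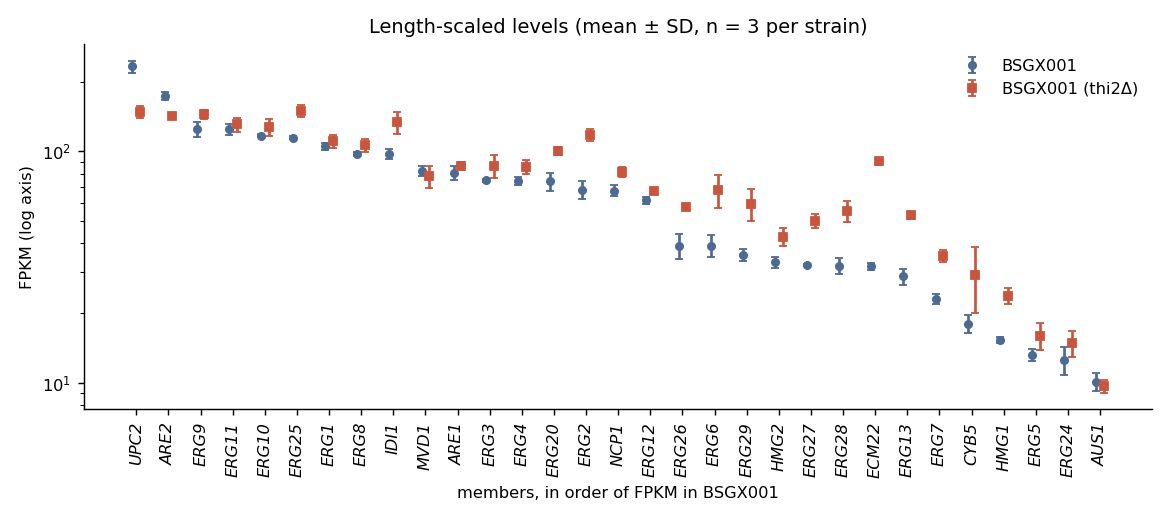
Mean FPKM of the 31 members with SD over 3 libraries per strain, on a log axis, ordered by level in BSGX001. *UPC2* and *ARE2* lead in BSGX001, *ERG25*, *UPC2*, *ERG9*, *ARE2* and *IDI1* overlap at the top in BSGX001 (thi2Δ), *ECM22* shows the widest gap between the strains, and *AUS1* is lowest in both.

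Beyond the pathway itself, 59 genes of related sterol and isoprenoid functions were read from the same fit, of which 17 were higher (28.8%, against 26.1% of all genes) and 18 lower (30.5%, against 25.2%). With library totals the 59 genes split into 34 higher and 9 lower, and their directions are therefore relative to the typical gene. Control of HMG-CoA reductase degradation was the list with the most falls, 7 of 14, with 2 that rose and a median log2 fold change of -0.16. With library totals this list held 4 rises and 4 falls, where 51.9% of all genes were higher and 10.3% lower. Its median was then 0.057, which lay below the median of all genes under that scaling. The counts of rises and falls thus depend on the scaling, and the lean to falls is relative to the typical gene. *NSG2*, an Insig homolog that stabilizes Hmg2p, had 774, 730 and 799 CPM in BSGX001 and 507, 490 and 470 CPM in BSGX001 (thi2Δ), and fell by 0.65 on the log2 scale (adjusted p = 3.1e-09). *CUE1*, which anchors a ubiquitin-conjugating enzyme at the endoplasmic reticulum, rose by 0.47 (adjusted p = 9.85e-05).

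Of 18 genes of sterol transport 6 rose (33.3%, against 26.1% of all genes) and 4 fell (22.2%, against 25.2%). In the fit without chromosome I and the chromosome XII stretch, 4 of 16 rose and 4 fell. In the main fit 23.7% of all genes outside both regions rose and 26.1% fell. *ARV1*, an endoplasmic reticulum protein linked to sterol distribution, rose by 1.45 (adjusted p = 6.42e-11) and lies in the chromosome XII stretch. The oxysterol-binding protein gene *OSH2* fell by 0.48 on the log2 scale (adjusted p = 1.93e-06). *SWH1*, another gene of that family, was chosen after its values were seen: it lies on chromosome I and rose by 1.00, close to the chromosome's median. Steryl ester hydrolysis and sterol acetylation held 4 rises (57.1%) and 2 falls (28.6%) among 7 genes. *YEH1*, a steryl ester hydrolase, fell by 0.24 on the log2 scale (adjusted p = 0.0128), a call lost with library totals and without BSGX001 replicate 2 (adjusted p = 0.226). *ATF2*, an acetyltransferase that also acts on sterols, rose by 0.48 at only 4.59 to 8.29 CPM (adjusted p = 0.0475), and DESeq2 did not call it (adjusted p = 0.0955), nor did edgeR without BSGX001 replicate 2 or 3 or without BSGX001 (thi2Δ) replicate 3 (adjusted p = 0.155, 0.116 and 0.219).

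The isoprenoid branches, which draw on the same farnesyl and isopentenyl diphosphate pools, held 2 rises and 2 falls among 11 genes. Each was a share of 18.2%, against 26.1% higher and 25.2% lower among all genes. *SRT1*, which makes dolichol precursors, rose by 0.52 (adjusted p = 0.00148), and *MOD5*, which attaches an isopentenyl group to transfer RNA, fell by 0.48 on the log2 scale (adjusted p = 5.19e-06). Among 9 other regulators and cytochrome partners, 3 rose and 3 fell (33.3% each). *HAP1*, a heme-responsive activator of respiratory and sterol genes, rose by 0.74 (adjusted p = 1.65e-10) and lies in the chromosome XII stretch, like *ECM22*. *DAP1*, a heme-binding partner of Erg11p, fell by 0.39 on the log2 scale (adjusted p = 4.48e-05), and did not pass with limma on log2(FPKM + 1) (-0.17, adjusted p = 0.09). With library totals the 4 lists other than that of reductase degradation, in the order given, held 14, 5, 6 and 5 rises and 3, 0, 1 and 1 falls. Under that scaling 51.9% of all genes were higher and 10.3% lower. Leaving out 1 library moved the count of rises or falls in each of the 5 lists by at most 2 genes.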

How the data were processed

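The authors deposited, for each of 6 libraries, per-gene expected counts, all whole numbers and without normalization, and FPKM values, adjusted for gene length and sequencing depth. The submitters' processing notes name R64 and DESeq; the aligner and counter are not given in the sources used here. A deposited table of the authors' comparison holds fold changes, p-values and q-values, and was not used; 12 further per-sample columns were not used either. Gene IDs matched R64 for 5923 of 5925 genes.

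Counts were compared with edgeR 4.0.16 in R 4.3.3 (TMM, filterByExpr, robust quasi-likelihood test), with adjustment by Benjamini-Hochberg over 5774 genes; every adjusted p is from it unless another tool is named. Standard errors (SE) were obtained by dividing the size of a log2 fold change by the square root of its F. The procedure was tested on simulated data. The biological coefficient of variation was 0.0628, and every pair of libraries differed beyond sampling noise. Alternatives were other scalings and filters, DESeq2 1.42.0, limma 3.58.1 on log2(FPKM + 1) and log2(FPKM + 0.1), a replicate block, each library left out, and the fit without chromosome I and the chromosome XII stretch. All 31 members are named, with *THI2* and, of each related list, the called gene with the largest rise and fall; upstream stretches are those of called members with the motif. Members, lists and alternatives were chosen with earlier results of these data known.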

Additional observations from a re-analysis of the deposited data

How the results depend on the processing

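Of the 16 members called, 12 kept their call under all 15 alternatives that gave them a value, and the exceptions were *AUS1*, *ERG20*, *IDI1* and *MVD1*. With library totals, limma on log2(FPKM + 0.1) and limma on log2(FPKM + 1), in that order, members higher numbered 20, 19 and 19, members lower 2, 2 and 2, and their median was 0.28, 0.27 and 0.27. All genes higher were then 2999, 2936 and 2940, and all genes lower 595, 560 and 558, with a median of 0.22 in each. Genes changed at least 2-fold were 241 with library totals, 243 with log2(FPKM + 0.1) and 40 without chromosome I and the chromosome XII stretch. Under the same 3 settings uncalled members changed sign: *ARE1* to 0.10, 0.10 and 0.10, *ERG1* to 0.076, 0.075 and 0.074, *ERG10* to 0.12, 0.12 and 0.12, *ERG11* to 0.065, 0.067 and 0.066, *ERG12* to 0.13, 0.13 and 0.13, *ERG3* to 0.21, 0.20 and 0.20, *ERG4* to 0.20, 0.20 and 0.20, *ERG8* to 0.12, 0.12 and 0.12, and *ERG9* to 0.21, 0.21 and 0.21. Without both regions *ERG3* was at 0.0049 and *ERG9* at 0.0082. The cause was not tested beyond the shift of the median itself.

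With each library left out in turn, members higher ranged from 10 to 14, members lower from 3 to 4 and the median of the members from 0.030 to 0.11, the highest without BSGX001 (thi2Δ) replicate 2. In the same fits all genes higher ranged from 1239 to 1407 and all genes lower from 1240 to 1426. The uncalled *ERG24* ranged from -0.086 to 0.093, *ERG3* from -0.099 to 0.050, *ERG4* from -0.048 to 0.036, *ERG5* from -0.048 to 0.11 and *ERG9* from -0.075 to 0.038. Leaving out 1 library brought *ERG25* past the threshold (0.20, adjusted p = 0.024, without BSGX001 (thi2Δ) replicate 1), *HMG2* (0.22, adjusted p = 0.0286, without BSGX001 (thi2Δ) replicate 2) and *ERG1* (-0.18, adjusted p = 0.0493, without BSGX001 replicate 1); *ERG25* also passed without both regions (0.18, adjusted p = 0.0391). The replicate block gave 13 members higher and 4 lower, and *CYB5* was the one added (adjusted p = 0.0446); of all genes it called 1530 higher and 1490 lower. Beside the pathway it ended the call of *ATF2* (adjusted p = 0.0568). The labels give same-numbered libraries only a number in common. Their deviations from the strain means correlated at 0.067, -0.082 and -0.045, and 2 of 6 libraries correlated best with their own number. With 3 libraries per strain these deviations are not independent, so the correlations cannot decide whether the libraries were paired. At an adjusted p under 0.01, 10 members were higher and 3 lower, and of all 5774 genes tested 1076 were higher and 1133 lower. The member with the fewest counts was *CYB5*, at 45 to 128 per library.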
